A study of Homo sapiens with 6 samples.

Results

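The AP-1 and immediate early genes were compared between breast cancer stem-like cells (BCSC) and non-BCSC sorted from one paclitaxel-resistant cell line. The set held 10 genes chosen by name, with no threshold on their values: the FOS family (FOS, FOSB, FOSL1, FOSL2), the JUN family (JUN, JUNB, JUND), the related factor ATF3, and the immediate early genes EGR1 and IER2. All 10 were among the 61015 genes with a transcript on file, and 9 of the 10 were among the 20442 genes that passed the filter on low counts and were tested. FOSB did not pass it.

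MDA-MB-231 is a human triple-negative (lacking oestrogen receptor, progesterone receptor and HER2) breast cancer line, and the cells of both groups were of its paclitaxel-resistant derivative. Paclitaxel is a taxane that stabilizes microtubules. The cells were sorted with the ALDEFLUOR assay, a fluorescent measure of aldehyde dehydrogenase (ALDH) activity, into an ALDH+ fraction (BCSC, 3 libraries) and an ALDH- fraction (non-BCSC, 3 libraries), and RNA was sequenced. Groups were taken from the sample titles, because the cell type given for all 6 libraries was the same. Nothing states that the libraries came from separate cultures, so p-values measure only the spread between these libraries, which may be technical.

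AP-1 is a dimer of basic leucine zipper (bZIP) proteins. A FOS protein pairs with a JUN protein, while JUN proteins can also pair with each other or with ATF proteins, and the dimer binds the TPA response element or the closely related cAMP response element. FOS, EGR1 and IER2 are immediate early genes, transcribed within minutes of a growth factor or stress signal through serum response factor (SRF), its ternary complex partners and mitogen-activated protein kinases. In triple-negative breast cancer lines, FOSL1 (the protein FRA-1) is known as an abundant FOS-family member linked to invasion.

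Libraries held 15925943 to 21215352 counts in BCSC and 9898588 to 12263667 in non-BCSC, so that 3 counts, the limit that a count of 0 allows, stood for 0.141 to 0.303 CPM (counts of a gene per library, set to one common total). Intervals of this kind cover counting error only. The summed share of 407 olfactory receptor genes, which serve as a measure of background because breast cells are not known to use them, was 39.5 to 151 CPM of all counts in BCSC and 538 to 1228 CPM in non-BCSC. Across the 20442 genes tested, the log2 fold change had a Spearman correlation of 0.54 with the GC content of the transcripts. Genes are not independent of each other, so this is only a description. The median GC content was 44.8% over the genes tested and 56.2% over the 9 members tested. Because both measures moved with the groups, each member's value is also given after a correction for GC content and length, and their part in the differences was otherwise not tested.

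Of the 9 members tested, 3 were called higher in BCSC (FOSL1, FOSL2 and JUND) and 0 lower, while 8.85% of all genes tested were called higher and 11.3% lower, 20.1% in all. These calls were made with the edgeR quasi-likelihood test at a Benjamini-Hochberg (BH) adjusted p under 0.05 and a fold of at least 2, and none of the 3 was called higher after the GC and length correction, in which FOSL2 and JUND changed sign. The median log2 fold change of the 9 members, BCSC over non-BCSC, was 1.06, and that of all genes tested was -0.05. With GC content and length corrected, these medians were -0.43 and -0.21. In 6 of the 9 members every BCSC library lay above every non-BCSC library, and in 0 below, where 24.2% of all genes did so, 27.9% lay wholly below and 52.1% either way. In bulk RNA of this kind, a change in every cell and a change in the number of cells that express a gene cannot be told apart.

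**Figure D1:**
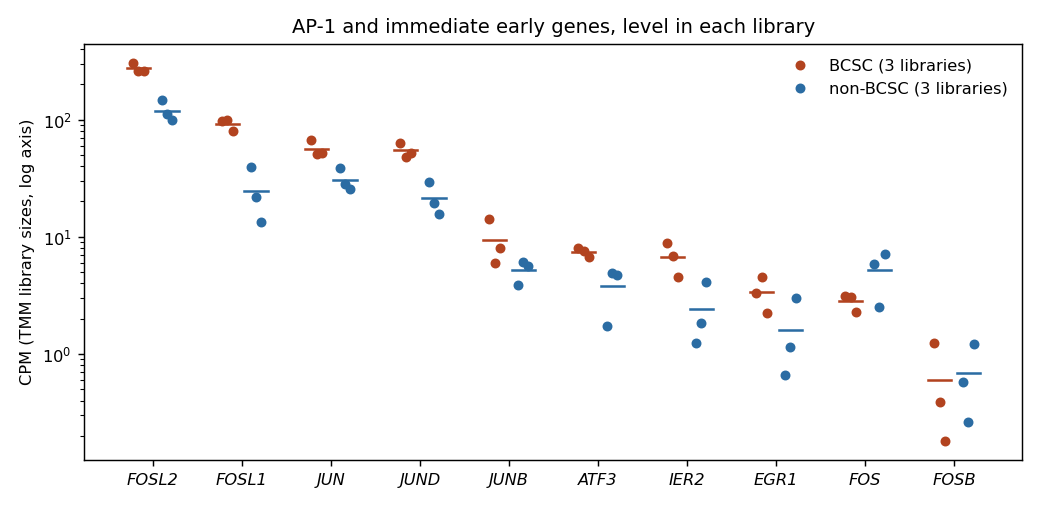
Level of each of the 10 genes in each library, in CPM with TMM library sizes on a log axis, with a bar at each group's mean (n = 3). FOSL2 and FOSL1 are the highest of the BCSC values, at 258 to 304 and 80.1 to 98.4 CPM, and lie apart from non-BCSC, while FOS, EGR1, JUNB and FOSB overlap between the groups.

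FOSL1 (ENSG00000175592, chr11:65892049-65900545, RefSeq GRCh38.p14) encodes FRA-1, a FOS protein that lacks a strong transactivation domain of its own. It measured 97.2, 98.4 and 80.1 CPM in the BCSC libraries and 39.0, 21.6 and 13.4 CPM in the non-BCSC libraries. The lowest BCSC value was 2.05 times the highest non-BCSC value. The means were 91.9 ± 10.3 and 24.7 ± 13.1 CPM (SD, n = 3), a log2 fold change of 1.88 (SE 0.32), or 3.69-fold, with a BH-adjusted p of 0.00359 in edgeR. The correction for GC content and length over all genes left a log2 fold change of 0.57 (BH-adjusted p = 0.107, edgeR). When the same correction was made only among the 5661 genes whose mean reached 500 counts, it was 1.10 (SE 0.21, BH-adjusted p = 6.81e-04). FOSL1 was then called higher as the only one of 4 members tested and 0 members were called lower, beside 2.37% and 3.29% of those genes. That mean was taken over both groups. FOSL1 (1607 counts in BCSC, 289 in non-BCSC), JUN (998 and 353) and JUND (963 and 249) reached it only through BCSC. The FOSL1 call in this set is therefore no support of its own. The alternatives gave FOSL1 adjusted p-values between 5.54e-22 and 0.801, with the log2 fold change between 0.08 and 2.43. Per length of transcript, FOSL1 ranked 1221 in BCSC and 4889 in non-BCSC among the 20442 genes tested. The BCSC rank leans in part on a shorter FOSL1 transcript, FOSL1-203, that was at 0 in every non-BCSC library.

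FOSL2 (ENSG00000075426, chr2:28392858-28417317) encodes FRA-2, the other FOS-related antigen, and had the most counts of the 10 genes. It measured 304, 259 and 258 CPM in BCSC and 148, 111 and 99.1 CPM in non-BCSC. The groups did not overlap, and the lowest BCSC library stood 1.75 times above the highest non-BCSC library. The means were 274 ± 26.4 and 119 ± 25.3 CPM (n = 3), a log2 fold change of 1.19 (SE 0.15), or 2.28-fold, at a BH-adjusted p of 0.00102 in edgeR. The log2 fold change was -0.078 (adjusted p = 0.725) with GC content and length corrected and 0.46 (adjusted p = 6.86e-04, under the minimum fold) with the correction made among well-counted genes. The alternatives placed its adjusted p between 1.87e-17 and 0.725. Among genes that overlap it, FOSL2-AS1 on the opposite strand held 8 counts in BCSC replicate 1 and 0 in the other libraries. A TPA response element, the sequence that AP-1 itself binds, lies 4 to 10 bases after the RefSeq start of FOSL2. The stretch is shown because FOSL2 was the only one of the 9 members with a promoter window in which this element was found (chr2:28392851-28392878, plus strand, GRCh38.p14, element in capitals).
FOSL2: tgccattgtagTGACTCAtctcgggcag

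FOS (ENSG00000170345, chr14:75278828-75282230), the founding member of the family and the classical immediate early gene, was low in both groups. It measured 3.14, 3.06 and 2.29 CPM in BCSC and 5.89, 2.54 and 7.06 CPM in non-BCSC. One non-BCSC library lay within the BCSC range and the other two lay above it. The means were 2.83 ± 0.470 and 5.16 ± 2.35 CPM, and the log2 fold change of -0.88 (SE 0.57) did not pass the test (BH-adjusted p = 0.262, edgeR). After the GC and length correction it was -1.91 (adjusted p = 0.0215) and FOS was called lower in BCSC. Its adjusted p ran from 0.0215 to 0.536 over the alternatives.

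FOSB (ENSG00000125740, chr19:45467996-45475179), whose product is best known from neurons, was at the edge of detection. It held 25, 6 and 3 counts in BCSC and 7, 3 and 13 counts in non-BCSC, or 0.181 to 1.23 and 0.263 to 1.22 CPM. The ranges coincide. In the fit without a filter on low counts, its log2 fold change was -0.12 (SE 1.77, BH-adjusted p = 0.970, edgeR). ERCC1, a DNA repair gene, spans FOSB on the opposite strand and held 85 to 529 counts.

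The deposited values are counts per annotated transcript, so each gene sum can be divided by transcript. Of the 49 transcripts of the members on file, 28 held counts, 16 passed the filter, and 0 were called in edgeR after BH adjustment, where 0.593% of the 46176 transcripts tested were called higher and 0.191% lower. At an unadjusted p under 0.05 with the same fold, 5 were higher in BCSC (FOSL1-201, FOSL1-203, FOSL2-201, JUN-201 and JUND-201), where 15.8% of all transcripts tested passed in either direction, and DESeq2 called 4 of these after adjustment, all but FOSL1-201. FOSL1-203 was at 0 in every non-BCSC library and passed the filter through BCSC alone, so its place in both counts follows from that 0 and is no support of its own.

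FOSL1-201, a transcript of 1702 nt, held 1018, 1145 and 1187 counts in BCSC against 477, 247 and 142 in non-BCSC. Its log2 fold change of 1.46 (SE 0.47) had a BH-adjusted p of 0.194 in edgeR. FOSL1-203, of 1200 nt, held 931, 368 and 90 counts in BCSC and was at 0 in all 3 non-BCSC libraries. It made up 28.8% of the FOSL1 counts in BCSC, and its adjusted p was 0.0756. FOSL1-201 alone thus carried all FOSL1 counts in non-BCSC, and the share of FOSL1-203 differed strongly among the BCSC libraries themselves. How reads shared by overlapping transcripts were divided is not given, so these shares are uncertain.

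**Figure D2:**
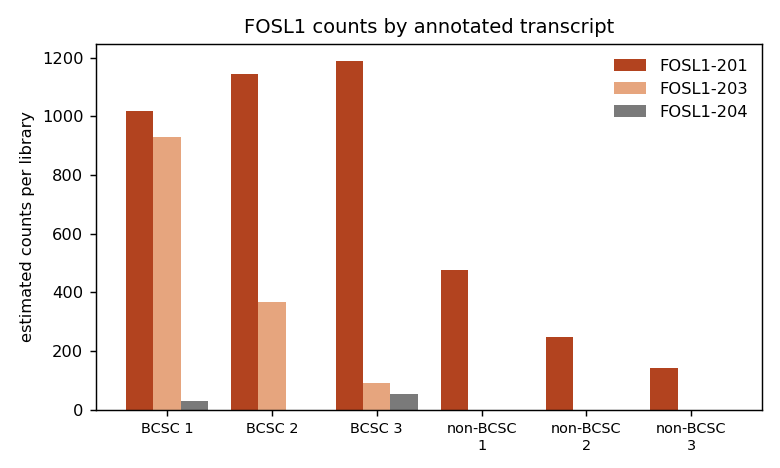
Estimated counts per library (vertical axis) of the 3 FOSL1 transcripts with counts, for the 3 BCSC and 3 non-BCSC libraries. FOSL1-201 runs from 1018 to 1187 counts in BCSC and from 142 to 477 in non-BCSC, and FOSL1-203 goes from 931 to 90 counts across BCSC and is at 0 in non-BCSC.

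For FOSL2, the 6713-nt transcript FOSL2-201 carried 81.5% of the gene's counts in BCSC and 93.2% in non-BCSC. It held 4624, 3493 and 3667 counts in BCSC and 1590, 1270 and 986 counts in non-BCSC, a log2 fold change of 1.08 (SE 0.18, BH-adjusted p = 0.0602, edgeR). The 889-nt FOSL2-203 held 1003 counts in BCSC replicate 1 and 53 and 66 in the other 2 BCSC libraries, so a single library supplied most of its counts. JUN-201 and JUND-201 held all of the counts of their genes in BCSC, with log2 fold changes of 1.08 and 1.41 (adjusted p = 0.126 for each, edgeR). The few counts of FOS and ATF3 were spread over 5 and 6 transcripts. IER2-201 held 132, 65 and 0 counts in BCSC against 0, 0 and 7 in non-BCSC, or 54.4% and 8.75% of the gene, so it was at 0 in 1 BCSC library while it supplied most of the gene in the other 2. IER2-203 held 49, 41 and 75 counts in BCSC against 15, 21 and 37 in non-BCSC.

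JUN (ENSG00000177606, chr1:58780791-58784047) encodes c-JUN, the partner through which FOS proteins bind DNA. It measured 66.9, 50.5 and 51.6 CPM in BCSC and 38.4, 28.0 and 25.4 CPM in non-BCSC. The groups did not overlap. The means were 56.3 ± 9.16 and 30.6 ± 6.86 CPM, and the log2 fold change of 0.87 (SE 0.20) had a BH-adjusted p of 0.0132 in edgeR but fell short of the minimum fold. At an adjusted p under 0.05 with no minimum fold, JUN joined FOSL1, FOSL2 and JUND, so that 4 of 9 members were higher, where 15.3% of all genes were. Without BCSC replicate 1 its adjusted p was 0.0592, and without non-BCSC replicate 1 its log2 fold change was 1.11. The log2 fold change was -0.43 (adjusted p = 0.0907) with GC content and length corrected and 0.06 (adjusted p = 0.796) with the correction made among well-counted genes. The alternatives spanned adjusted p-values of 8.63e-05 to 0.796.

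JUND (ENSG00000130522, chr19:18279694-18281622), the JUN protein that is present in most resting cells, has the highest GC content of the 10 genes (69.9%). It measured 63.3, 47.6 and 52.3 CPM in BCSC and 29.6, 19.3 and 15.5 CPM in non-BCSC. Every BCSC library was above every non-BCSC library, and the lowest was 1.61 times the highest of the other group. The means were 54.4 ± 8.05 and 21.5 ± 7.25 CPM, a log2 fold change of 1.33 (SE 0.25), or 2.51-fold (BH-adjusted p = 0.00531, edgeR). After the same correction JUND was called in the opposite direction, at -1.01 (adjusted p = 0.0164), and with the correction made among well-counted genes its log2 fold change was -0.024 (SE 0.21, adjusted p = 0.936). Over all alternatives its log2 fold change ran from -2.07 to 1.68 and its adjusted p from 1.06e-08 to 0.936.

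The 250 bases before the RefSeq start of JUND are shown because the member whose call turned with the GC correction is also GC-rich there (74.8% GC) and holds the only cAMP response element found among the members (chr19:18281623-18281872, minus strand, GRCh38.p14, element in capitals).
JUND: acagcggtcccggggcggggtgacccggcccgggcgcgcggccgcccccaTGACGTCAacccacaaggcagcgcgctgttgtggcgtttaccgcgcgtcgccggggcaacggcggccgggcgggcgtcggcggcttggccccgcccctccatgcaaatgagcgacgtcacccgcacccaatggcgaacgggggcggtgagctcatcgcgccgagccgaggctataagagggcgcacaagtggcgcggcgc

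JUNB (ENSG00000171223, chr19:12791486-12793315) encodes a JUN protein with weaker transactivation that can restrain c-JUN. It measured 14.3, 5.99 and 8.01 CPM in BCSC and 3.85, 6.04 and 5.65 CPM in non-BCSC, and the lowest BCSC library lay within the non-BCSC range. The means were 9.43 ± 4.33 and 5.18 ± 1.17 CPM, and the log2 fold change of 0.85 (SE 0.44) did not pass (BH-adjusted p = 0.165, edgeR). The corrected value was -1.29 (adjusted p = 0.0474) and JUNB was called lower. The adjusted p ran from 0.0474 to 0.563 over the alternatives. HOOK2, a linker of vesicles to microtubules, spans JUNB on the opposite strand and held 96 to 375 counts.

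Levels can be compared between genes only per length of transcript, here as counts per kb scaled so that all genes of a library sum to the same total, with no correction for GC content. On this scale the FOS-family sum was 414, 287 and 254 in BCSC against 142, 81.9 and 108 in non-BCSC. The JUN-family sum was 153, 114 and 128 in BCSC and in non-BCSC 75.4, 57.9 and 52.7. Neither sum overlapped between the groups. FOSL1 and FOSL2 made up most of the FOS-family level in every library, and FOS reached 24.8% in non-BCSC replicate 3. Counts were divided by the length of each transcript, so short transcripts weigh more. In non-BCSC replicate 3 the 629-nt FOS-205 held 51 of the 75 FOS counts. In the other 2 non-BCSC libraries FOS was 5.95% and 5.47% of the family, and in BCSC 1.20%, 2.91% and 1.16%.

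FOSL1 was 41.7%, 58.1% and 52.8% of the FOS-family level in BCSC against 41.1%, 40.9% and 20.3% in non-BCSC. The groups did not overlap, but BCSC replicate 1 and non-BCSC replicate 1 lay close together. FOSL1-203 (1200 nt) is shorter than FOSL1-201 (1702 nt), so its counts weigh more here. It held 931, 368 and 90 counts in the BCSC libraries and was at 0 in every non-BCSC library. The narrow gap therefore leans on an uncertain division of reads between the 2 transcripts, and nothing is read from it. FOSL2 was 56.9%, 38.9% and 46.0% in BCSC against 52.6%, 53.4% and 53.7% in non-BCSC, which overlap. In BCSC replicate 1 the FOSL2 level was 236, against 112 and 117 in BCSC replicates 2 and 3. The 889-nt FOSL2-203 held 1003 counts in BCSC replicate 1 and 53 and 66 in the other BCSC libraries. The FOS-family sum and shares of BCSC replicate 1 therefore lean on FOSL2-203 as well as on FOSL1-203. There FOSL1-203 raises the FOSL1 share and FOSL2-203 lowers it. Within the JUN family, JUND was 53.7%, 56.8% and 57.3% in BCSC against 52.0%, 45.7% and 42.5% in non-BCSC. JUN was 33.6%, 35.7% and 33.5% against 40.9%, 39.2% and 41.2%. JUND thus held a larger and JUN a smaller share of the uncorrected JUN-family level in each BCSC library than in any non-BCSC library, and JUND is also the more GC-rich of the pair (69.9% against 56.2%). These shares are descriptions without a test.

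**Figure D3:**
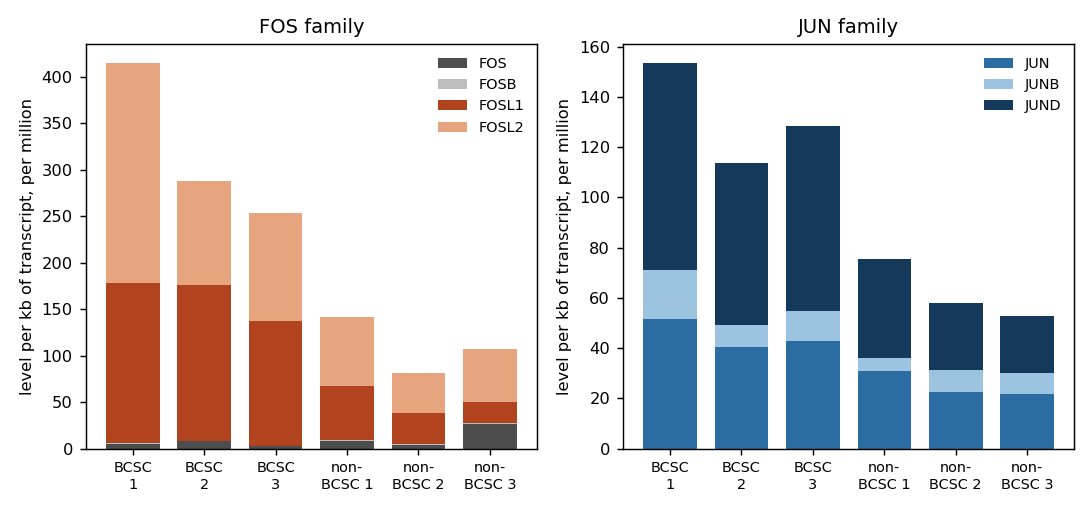
Stacked level per kb of transcript, scaled to a common total (vertical axis), of the 4 FOS-family genes (left) and the 3 JUN-family genes (right) in each of the 6 libraries. The FOS-family sum is 254 to 414 in BCSC and 81.9 to 142 in non-BCSC, most of it FOSL1 and FOSL2, and the JUN-family sum is 114 to 153 and 52.7 to 75.4.

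ATF3 (ENSG00000162772, chr1:212565407-212620777) encodes a stress-induced bZIP factor that pairs with JUN proteins. It measured 8.01, 7.48 and 6.75 CPM in BCSC and 1.72, 4.90 and 4.71 CPM in non-BCSC. The BCSC libraries lay close together above all 3 non-BCSC libraries, of which replicate 1 was the lowest. The log2 fold change of 0.96 (SE 0.50) did not pass (BH-adjusted p = 0.167, edgeR). It was 0.58 (adjusted p = 0.389) with GC content and length corrected, and its adjusted p was at least 0.130 in every alternative.

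EGR1 (ENSG00000120738, chr5:138465479-138469303) encodes a zinc finger factor induced by serum. It held 68, 70 and 37 counts in BCSC and 8, 13 and 32 counts in non-BCSC, or 3.34, 4.55 and 2.23 against 0.655, 1.14 and 3.01 CPM. The groups overlap, since non-BCSC replicate 3 exceeded BCSC replicate 3. The log2 fold change of 1.06 (SE 0.79) did not pass (BH-adjusted p = 0.330, edgeR) and was -0.22 (adjusted p = 0.852) with GC content and length corrected. Its adjusted p ran from 0.0144 to 0.852. In non-BCSC its counts per kb were 0.505 times those of the olfactory receptor genes, which is within the background, and in BCSC 10.5 times. The olfactory receptor genes themselves held 8.27 to 15.2 counts per kb in non-BCSC and 1.05 to 3.18 in BCSC. Such ratios therefore do not compare the level of a gene between the groups.

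The 250 bases before the RefSeq start of EGR1 are shown because they hold 2 CArG boxes, the element bound by SRF, the factor that links the serum signal to immediate early genes (chr5:138465229-138465478, plus strand, GRCh38.p14, boxes in capitals).
EGR1: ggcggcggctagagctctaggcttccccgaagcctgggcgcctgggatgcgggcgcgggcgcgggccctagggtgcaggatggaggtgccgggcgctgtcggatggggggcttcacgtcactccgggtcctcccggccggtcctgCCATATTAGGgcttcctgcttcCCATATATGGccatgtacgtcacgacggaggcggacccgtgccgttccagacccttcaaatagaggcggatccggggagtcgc

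IER2 (ENSG00000160888, chr19:13150411-13154911) encodes a nuclear protein of the immediate early response. It held 181, 106 and 75 counts in BCSC and 15, 21 and 44 counts in non-BCSC, or 8.89, 6.90 and 4.52 against 1.23, 1.84 and 4.14 CPM. The lowest BCSC library stood just above the highest non-BCSC library, by 1.09 times. The log2 fold change of 1.48 (SE 0.59) did not pass (unadjusted p = 0.0325, BH-adjusted p = 0.0850, edgeR) and was -0.55 (adjusted p = 0.507) with GC content and length corrected. Without non-BCSC replicate 3 it was 2.15 (adjusted p = 0.0382), and the alternatives spanned adjusted p-values of 0.0382 to 0.672. Its counts per kb were 1.13 times those of the olfactory receptor genes in non-BCSC and 32.1 times in BCSC, where those genes themselves held fewer counts per kb.

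The other members stood above that background to different degrees. In non-BCSC, counts per kb were 35.7 times those of the olfactory receptor genes for FOSL2, 21.4 for FOSL1, 18.4 for JUND and 10.4 for JUN. They were 5.29 times for FOS, 3.58 for ATF3, 2.88 for JUNB and 0.261 for FOSB. When each library's background per kb was subtracted, FOSL1 kept a log2 fold change of 1.72 (adjusted p = 0.00741) and JUND 1.18 (0.0115), while FOSL2 at 0.99 (0.00233) fell just short of the minimum fold. EGR1 was then at 0 in all 3 non-BCSC libraries and at 65, 67 and 27 counts in BCSC, so that its call (adjusted p = 0.0144) compares BCSC with a 0 that the subtraction set, and nothing is read from it, since the counts as deposited overlap between the groups. With EGR1 counted, 3 members were called higher and 0 lower, beside 10.8% and 6.57% of the genes tested in that way. FOSL1 and JUND were the other 2. With the background subtracted and GC content and length corrected as well, 1 member was called higher (EGR1, again against a 0 set by the subtraction) and 2 lower (FOS and JUND), beside 8.24% and 10.5% of the genes, and FOSL1 was at 0.08 (adjusted p = 0.801).

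With GC content and length corrected over all genes, 0 members were called higher and 3 lower (FOS, JUNB and JUND), beside 7.91% and 12.7% of all genes. The median of all genes was then -0.21 in place of -0.05. Relative to it, the log2 fold changes were -1.70 for FOS, -1.09 for JUNB, -0.80 for JUND, 0.13 for FOSL2 and 0.78 for FOSL1. FOSL1 and ATF3 were the members whose log2 fold change was above 0 in every alternative run. FOSL1 had at the same time the largest log2 fold change of the 9 members in the uncorrected fit.

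**Figure D4:**
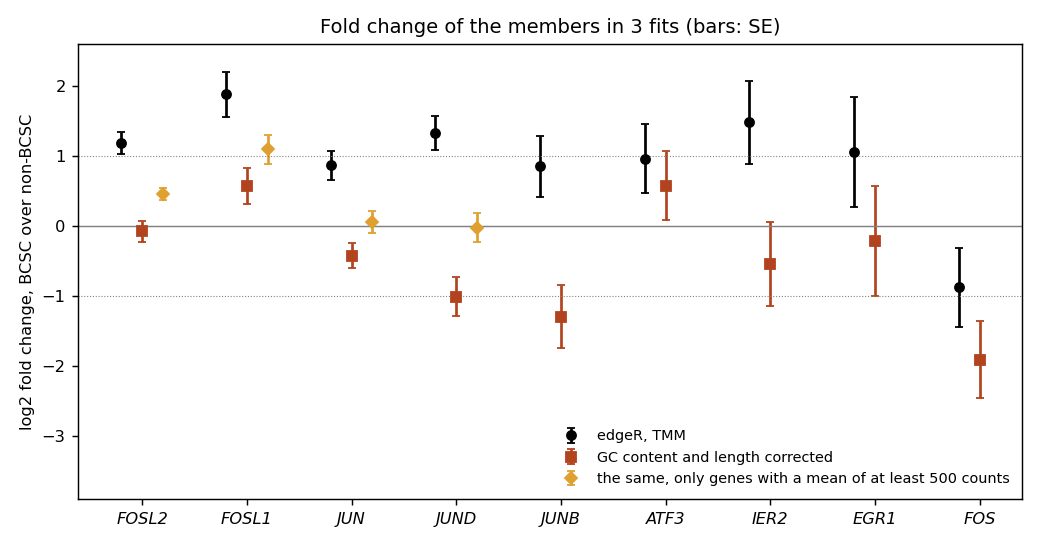
Log2 fold change, BCSC over non-BCSC, with SE bars for the 9 members tested, in the edgeR fit, after the correction for GC content and length, and after that correction among genes whose mean reached 500 counts (4 members). Values of 0.85 to 1.88 for 8 members in the uncorrected fit become -1.29 to 0.58 after the correction over all genes, and FOSL1 is at 1.88, 0.57 and 1.10 in the 3 fits. FOSL1, JUN and JUND entered the last fit only through their BCSC counts.

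RefSeq promoter windows of 300 bases, from 250 before to 50 after the start, were found for 9 of the 10 members (all but FOSL1), with 10 windows in all. In both strands, the TPA response element (TGACTCA) was found in FOSL2, as in 4.43% of 25489 windows of all genes, and the cAMP response element (TGACGTCA) in JUND, as in 2.21%. The CArG box was found in EGR1 alone, as in 1.19% of all windows. The TATA box (TATAAA) stood near the start in FOS, FOSB and JUNB, at -33, -30 and -31, and in the more distal part of 1 of the ATF3 windows. Of all windows, 9.86% held it. The GC box (GGGCGG), which 53.2% of windows held, was found in FOS, FOSB, FOSL2, JUN, JUND, ATF3 and IER2. These matches describe letters in a window and not binding.

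The genes with the pattern most like FOSL1 were POLL, a DNA polymerase of base excision repair, C14orf132, and MT2A, a metallothionein. The root mean square difference of log2(CPM + 0.5), centred on each gene's mean over the 6 libraries, was 0.122, 0.137 and 0.153, among 12589 genes whose mean reached 50 counts. MT2A measured 233 CPM in BCSC and 68.8 CPM in non-BCSC, a log2 fold change of 1.75. These genes were picked for their likeness to FOSL1, so such a difference follows from the choice and is no support of its own.

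Among the 12 tested of 15 other bZIP factors that can pair with AP-1 proteins, 1 was called higher and 0 lower, with a median log2 fold change of 0.52, where 8.85% and 11.3% of all genes were called. That gene was ATF7, a CRE-binding factor, at 110 ± 9.86 CPM in BCSC and 36.8 ± 10.9 CPM in non-BCSC (log2 fold change 1.57, BH-adjusted p = 0.00131, edgeR). It was also called with GC content and length corrected (1.07, adjusted p = 0.00134).

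Of the 19 kinases and serum response factors that act upstream of immediate early genes, 4 were called higher and 1 lower, with a median of 0.76, beside the same shares of all genes. With GC content and length corrected 2 were called higher and 2 lower, beside 7.91% and 12.7% of all genes. SRF itself measured 18.9 ± 5.38 CPM in BCSC and 4.13 ± 1.09 CPM in non-BCSC (2.18, BH-adjusted p = 0.00291, edgeR). The others higher were ELK1, a ternary complex partner of SRF (2.15, 0.0127), MRTFA, an actin-regulated coactivator (1.50, 0.0213), and MAP2K7, a kinase that activates JNK (1.76, 0.0307), each given as log2 fold change and adjusted p. None of these 4 was called with GC content and length corrected, where SRF was at 0.13, ELK1 at 0.83, MRTFA at -0.42 and MAP2K7 at -0.09. The genes called higher after the correction were ELK3 (1.26) and MAP2K4 (1.04), and MAPK3 (-1.27) was called lower. Before it they were at 0.85, 0.37 and 0.37 and not called. MAPK10, the JNK of neurons, was lower at 11.3 ± 4.08 against 43.7 ± 10.2 CPM (-1.97, adjusted p = 0.00240) and stayed so after the correction (-1.24).

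Among the 30 tested of 33 other immediate early genes, 3 were called higher and 0 lower, with a median of 0.66. That count is close to the 8.85% of all genes called higher, and with GC content and length corrected the median was -0.05. CCN1, a matricellular protein induced by serum, measured 105 ± 19.8 CPM in BCSC and 40.0 ± 9.29 CPM in non-BCSC (1.38, BH-adjusted p = 0.00184, edgeR) and was called after the correction too (1.10). KLF4, a Kruppel-like factor, was at 1.84 (0.00705) and CSRNP1, a nuclear protein induced by AXIN, at 2.07 (0.0132), and neither was called after the correction (0.81 and 0.42). SGK1, not called before the correction (1.03, adjusted p = 0.0879), was called higher after it (1.55).

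Among the 21 tested of 24 genes known as AP-1 targets, 8 were called higher and 0 lower, with a median of 0.91, where 8.85% and 11.3% of all genes were called. CXCL8, the neutrophil chemokine interleukin-8, measured 424, 518 and 517 CPM in BCSC and 18.7, 29.4 and 23.8 CPM in non-BCSC, groups that lay far apart (4.33, BH-adjusted p = 3.13e-06, edgeR). PLAU, the urokinase plasminogen activator, measured 50.8 ± 7.64 against 13.3 ± 3.85 CPM (1.92, adjusted p = 9.93e-04). Both were also called with GC content and length corrected, at 6.12 and 1.15. TGFB1, a growth factor of many cell types (1.66, 0.00180), and TIMP1, an inhibitor of matrix proteases (1.34, 0.00635), were at -0.37 and -0.09 after it. MMP14, LIF and HMGA1 were among the others called. MMP14, LIF and HMGA1 were at 0.13, -0.17 and -0.36 after the correction. After it 4 of the list were called higher and 0 lower, where 7.91% and 12.7% of all genes were, and the list's median was -0.09. The 4 were CXCL8, PLAU, ITGA2 (1.44) and CD44 (1.18). ITGA2 (0.99) and CD44 (0.86) had been under the minimum fold before the correction.

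Of 10 genes for the turnover of FOS and JUN proteins, 0 were called in either direction, with a median of -0.02. Without the fold minimum, 2 were higher and 2 lower at an adjusted p under 0.05. Of all genes tested, 15.3% were higher and 14.6% lower in that way, so these counts are near those shares. Those of the list included SKP1, a part of the SCF ubiquitin ligase, at -0.46 (BH-adjusted p = 0.00665, edgeR), and SENP1, a SUMO protease, at 0.45 (0.0257). The corrected values were -0.06 and 0.71.

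**Figure D5:**
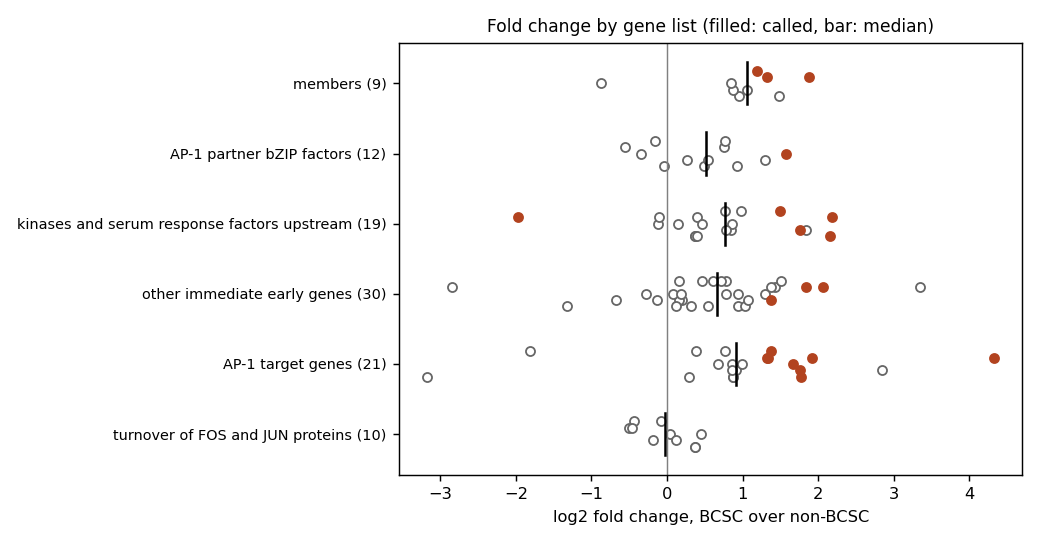
Log2 fold change, BCSC over non-BCSC (horizontal axis), of each tested gene of the members and of 5 related lists, with called genes filled and a bar at each list's median. The medians run from -0.02 for protein turnover to 1.06 for the members, with -0.05 over all genes tested, and they run from -0.63 to 0.37 with GC content and length corrected.

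Markers were checked in the same libraries. VIM and CD44, mesenchymal markers of MDA-MB-231, were at 3408 and 2636 CPM in BCSC and 2762 and 1440 CPM in non-BCSC. Of the 6 markers of the line, CAV1 was called higher (1.30), and KRT8 (-3.15) and KRT18 (-2.56) lower in BCSC. For this and the marker lists below, 8.85% of all genes tested were called higher and 11.3% lower. The summed level of 6 luminal epithelial markers was 80.7 to 92.9 CPM in BCSC and 102 to 139 CPM in non-BCSC, with PGR called lower (-4.19). Most of that sum was ERBB2, at 64.5 and 77.4 CPM (-0.28, not called). ESR1 (-1.19), CDH1 (-0.98) and GATA3 (0.57) were not called either. GATA3 lay higher in every BCSC library than in any non-BCSC library, and ESR1 and CDH1 lay lower. Of 8 blood and stromal markers 7 were matched, with a summed level of 6.64 to 11.6 CPM in BCSC and 28.5 to 41.7 CPM in non-BCSC and PTPRC called lower (-5.02). Of 4 ALDH genes, ALDH1A3, at 29.7 ± 3.95 against 17.3 ± 5.75 CPM, was not called (0.77, BH-adjusted p = 0.0577, edgeR). ALDH1A1 (-3.63), ALDH1A2 (-2.70) and ALDH3A1 (-1.49) were called lower in the fraction sorted for ALDH activity. ALDH1A1 held 0, 5 and 6 counts in BCSC against 38, 28 and 32 in non-BCSC, and ALDH1A2 9, 6 and 18 against 54, 44 and 45. In non-BCSC, ALDH1A1, ALDH1A2 and ALDH3A1 had 3.30, 3.66 and 9.11 times the counts per kb of the olfactory receptor genes. None of the 3 was called with background removed (ALDH1A1 at an adjusted p of 0.0569, ALDH1A2 0.0641, ALDH3A1 0.0792), and ALDH1A1 was not called with GC content and length corrected either (0.0699). The part of these markers in the differences of the AP-1 genes was not tested.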

How the data were processed

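RNA was sequenced from 6 libraries of paclitaxel-resistant MDA-MB-231 cells, 3 BCSC and 3 non-BCSC. The authors deposited estimated counts for each transcript, given as whole numbers without normalization. The submitters' processing notes name HISAT2, featureCounts, DESeq2 and hg38, while the study's methods name hg19. The file holds no coordinates, so which build was used, and whether counting used the strand that the library kit marks, is not given in the sources used here.

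By identifier, 249616 of 252618 transcripts (98.8%) matched GENCODE on GRCh37 and were summed per gene. The 2998 unmatched transcripts and 4 assembler-made ones, 0.273% of the counts, were left out. A shift in how reads were divided among transcripts leaves gene sums unchanged within a gene, but overlapping genes could still exchange reads.

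For the gene sums, edgeR 4.0.16 under R 4.3.3 was run with filterByExpr, TMM library sizes and a robust quasi-likelihood fit on group only. P-values were BH-adjusted over all genes tested. Calls needed an adjusted p below 0.05 together with a log2 fold change past 1 in size. Transcripts were tested likewise. The common biological coefficient of variation was 0.45 for genes and 1.02 for transcripts. Values are means ± SD (n = 3) in CPM with TMM library sizes, and fold changes are BCSC over non-BCSC. Promoter sequence and locations are RefSeq, GRCh38.p14.

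Alternatives were DESeq2 1.42.0, RLE size factors, no filter, at least 10 counts in every library, the replicate number as a block, each library left out, a loess correction (span 0.3) for GC content and length, removal of a background per kb estimated from olfactory receptor genes, an unadjusted p and no minimum fold. The correction among genes whose mean reached 500 counts, and the background removal joined with the correction, were added after the data were seen.

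The members and gene lists were chosen with earlier results of these data known. All 10 members are described. From each list the text names called genes, up to 4 higher and 4 lower by p whose mean reached 50 counts, or, where none was called, the 2 with the smallest p, and also the 3 genes nearest to FOSL1. Other names (MMP14, LIF, HMGA1, ITGA2, VIM, CD44, ERBB2, ESR1, CDH1, GATA3, ALDH1A1, ALDH1A2, ALDH1A3, ELK3, MAP2K4, MAPK3 and SGK1) were chosen after their values were seen.

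On counts simulated for this comparison with 4-fold changes, the test called 193 of 198 changed genes with 8 false calls among 19815 at a dispersion of 0.05, and 68 of 191 with 2 false calls among 19651 at 0.2. With a simulated GC trend at a dispersion of 0.05, false calls among 19702 genes were 1531 without and 11 with the correction. That trend was smooth, of the kind the correction removes, and the changes were placed without regard to GC content. The simulation therefore cannot show whether the corrected values of the real data are right.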

Additional observations from a re-analysis of the deposited data

How the results depend on the processing

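Of 129 values computed for the 9 tested members under alternatives, 108 kept their direction and side of the threshold, 6 passed it newly, 4 no longer passed it and 11 reversed. FOSL1, FOSL2 and JUND were called under RLE size factors, DESeq2, no filter, a minimum of 10 counts per library and each of the 6 fits without 1 library.

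Reversals came from corrections for GC content and length, and the cause was not tested. With GC content and length corrected, log2 fold changes were -0.078 (FOSL2), -0.43 (JUN), -1.29 (JUNB), -1.01 (JUND), -0.22 (EGR1) and -0.55 (IER2), and 0 members were called higher and 3 lower. With the correction among genes of at least 500 counts JUND was at -0.024, 1 member was called higher, and 134 genes were called higher and 186 lower, from fewer genes tested. That member, FOSL1, reached a mean of 500 counts only through BCSC. With background removed and the correction joined, log2 fold changes were -0.24 (FOSL2), -0.71 (JUN), -1.70 (JUNB) and -2.07 (JUND), with 1 member higher and 2 lower.

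Among all genes, 1810 were called higher and 2307 lower. Higher genes numbered 3125 with no minimum fold. Lower genes numbered 3512 in DESeq2, 1177 with at least 10 counts in every library, 1086 with background removed and 3527 at an unadjusted p. Without 1 library, 3 to 4 members were called higher and 0 lower, and 959 (without BCSC replicate 1) to 2230 genes higher and 1103 (without non-BCSC replicate 3) to 3004 lower, with 1198 and 1143 lower without BCSC replicates 1 and 2. Transcripts of members called higher were 0 in edgeR, 4 in DESeq2 and 5 at an unadjusted p. The matching shares of all transcripts are not given here for DESeq2 or, for higher ones alone, for the unadjusted p. Leaving out libraries was not run on transcripts.

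With the replicate block, 3 members were called higher and 0 lower, and 1994 genes higher and 2321 lower. FOSL2 was at 1.20 and JUND at 1.37 under the block. Same-numbered libraries did not all deviate together (0.22, 0.03 and 0.25), and BCSC replicate 2 correlated best with non-BCSC replicate 1 (0.04). Depth limits FOSB, EGR1, FOS and IER2, with 3 to 25, 8 to 70, 29 to 75 and 15 to 181 counts per library. The call of EGR1 with background removed rests on non-BCSC counts that the subtraction set to 0.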
